A study of Homo sapiens with 18 samples.

Results

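The 10 ATP-binding cassette (ABC) genes followed here, across HK-2 cells exposed to CsA or to vehicle, were ABCB1, ABCC1, ABCC2, ABCC3, ABCC4, ABCC5, ABCG2, ABCA1, ABCB10 and ABCG1. They were chosen by symbol, and each was read from its brightest probe set annotated with that symbol alone, so that they are 10 of the 19775 genes with such a probe set. HK-2 cells descend from human kidney proximal tubule epithelium and were immortalized. CsA is the usual abbreviation of cyclosporin A, an immunosuppressant known for its toxicity to the kidney. The 18 arrays made up 6 groups of 3 biological replicates: HK-2 cells with CsA for 12, 24 or 48 h, and HK-2 cells with the control vehicle for 12, 24 or 48 h. Neither the dose nor the vehicle is named in the labels. All cells were of this one line, from a single laboratory, grown with EGF, hydrocortisone, insulin, transferrin and selenite, plated a day before exposure and exposed near confluence. The design text places the series in a search for expression signatures of toxic compounds.

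ABC transporters use the energy of ATP hydrolysis to move substrates across membranes. In the proximal tubule, ABCB1 (P-glycoprotein), ABCG2 (the breast cancer resistance protein) and several members of the ABCC family (the multidrug resistance-associated proteins) export drugs, conjugates and organic anions. Cyclosporin A is a known substrate and inhibitor of ABCB1. The set is wider than drug efflux: ABCA1 and ABCG1 export cholesterol and phospholipid from cells, and ABCB10 lies in the inner mitochondrial membrane and is tied to heme synthesis.

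The 250 bases before the RefSeq start sites of ABCA1 and ABCB1 are shown because these were the members with the largest opposite differences between CsA and control at 48 h. Both are on GRCh38.p14, read 5′ to 3′ on the minus strand of each chromosome. The ABCA1 window is chr9:104928156-104928405, and its capitals mark the E-box CACGTG and a pair of NGGTNA hexamers on the opposite strand with 4 bases between them, a direct repeat of the kind bound by liver X receptors (LXR). The ABCB1 window is chr7:87600885-87601134, before the downstream one of 2 annotated starts, and its capitals mark CCAAT and its reverse complement ATTGG.
ABCA1: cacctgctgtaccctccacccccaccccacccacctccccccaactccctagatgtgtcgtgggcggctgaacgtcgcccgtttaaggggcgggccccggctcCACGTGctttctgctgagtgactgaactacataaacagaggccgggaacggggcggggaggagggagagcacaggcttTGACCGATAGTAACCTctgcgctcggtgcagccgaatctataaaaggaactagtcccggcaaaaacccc
ABCB1: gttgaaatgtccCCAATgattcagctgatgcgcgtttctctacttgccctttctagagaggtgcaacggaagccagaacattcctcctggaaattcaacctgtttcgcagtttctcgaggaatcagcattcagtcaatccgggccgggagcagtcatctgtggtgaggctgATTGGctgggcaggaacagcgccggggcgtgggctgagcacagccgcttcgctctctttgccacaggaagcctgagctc
Searched on both strands, the direct repeat occurred in 0.53% of the 35116 promoter windows of this length in the table, CACGTG in 6.34% and CCAAT in 32.0%. These matches describe the letters of the windows only. Of the 10 genes, 7 had an entry in the promoter table.

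Of the 10 genes, 7 reached a mean of 4 in at least 1 group and were tested among 10717 genes. The other 3 lay under 4 in all groups. The canalicular and apical conjugate pump ABCC2 read 2.32 to 2.37 on the 18 arrays, the urate and drug exporter ABCG2 read 2.06 to 2.10, and the sterol exporter ABCG1 read 2.57 to 2.73. All values are GCRMA values taken as log2, and this method compresses values close to background, so no difference is reported for these 3 genes. They entered only the alternative fit without a level filter.

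The arrays had medians of 2.86 to 2.92, and 38.2% to 39.1% of probe sets reached 4. The number of arrays limits the precision. Arrays with the same replicate number deviated together from their group means, with correlations across genes of 0.277 to 0.942, and replicate 3 lay apart from replicates 1 and 2. Of the variation inside groups, as sums of squares, 71.5% went with the replicate number. Each limma result is therefore given from a fit without the replicate number and, where the call differs, also with the number as a block (given as "blocked"). Every general epithelial marker examined reached 4 (6 of 6), but only 2 of 11 proximal tubule markers did (DPP4 and PAX8). The defining genes LRP2, CUBN, AQP1 and SLC34A1 did not. Among other lists, 2 of 4 fibroblast markers (COL1A1 and DCN) and 1 of 3 podocyte markers (PODXL) reached 4. No distal nephron, endothelial, leukocyte or hepatocyte marker on the array did. In RNA from whole cultures, fewer cells that hold a transcript and less of it per cell cannot be told apart.

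**Figure D1:**
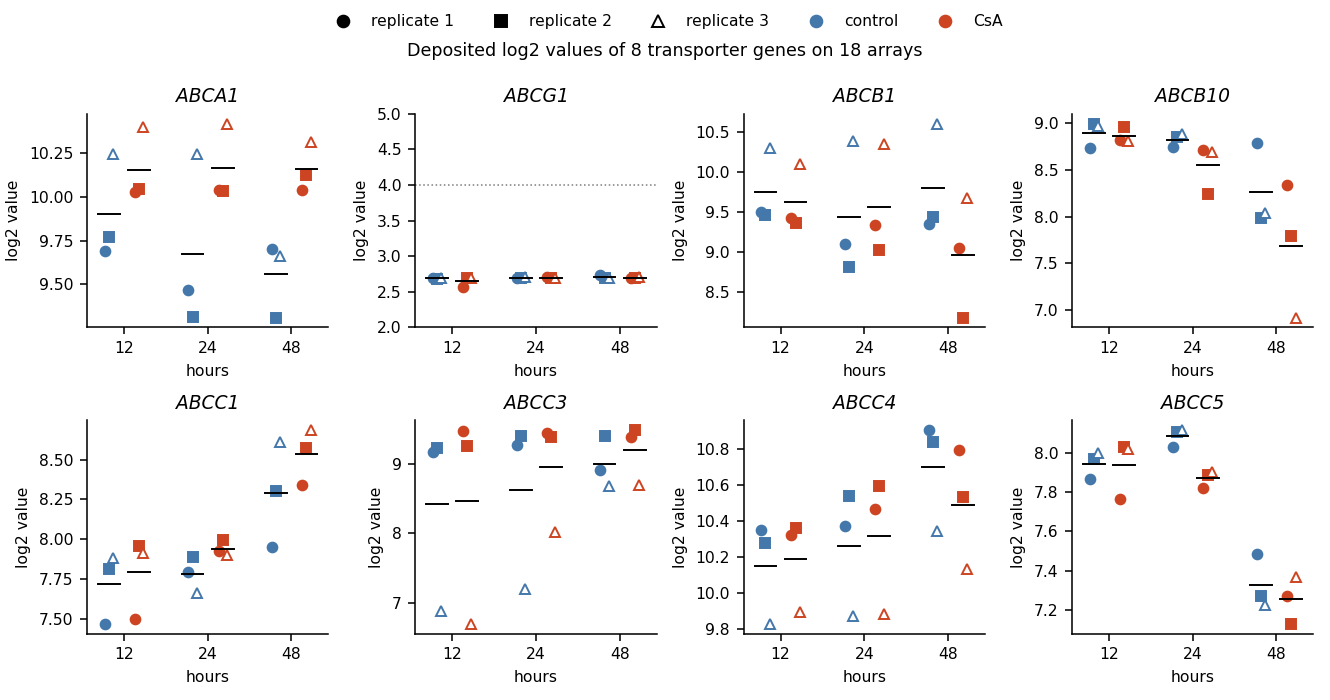
Log2 GCRMA value (vertical axis) at 12, 24 and 48 h for the 7 tested genes and ABCG1, with 1 marker per array, blue for control and red for CsA, circles, squares and open triangles for replicates 1, 2 and 3, and bars at the group means; the dotted line in the ABCG1 panel marks 4. ABCA1 is higher on the CsA array of each pair, ABCB1 is lower on the CsA array of all 3 pairs at 48 h, ABCC5 is low in both treatments at 48 h, and replicate 3 stands apart for ABCB1 and ABCC3.

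ABCA1, which loads cholesterol and phospholipid onto apolipoprotein A-I, was higher with CsA in 9 of 9 replicate pairs. Control arrays read 9.69, 9.77 and 10.25 at 12 h, 9.47, 9.31 and 10.24 at 24 h, and 9.70, 9.31 and 9.66 at 48 h, for replicates 1, 2 and 3. CsA arrays read 10.03, 10.04 and 10.40 at 12 h, 10.04, 10.04 and 10.42 at 24 h, and 10.04, 10.13 and 10.32 at 48 h. The groups overlapped at 12 and 24 h through the high control value of replicate 3, and at 48 h every CsA array lay above every control array, as for 8.25% of genes tested. The CsA group means stayed near one level, 10.16 ± 0.21 at 12 h and 10.16 ± 0.14 at 48 h (SD, n = 3 each), and the control means were 9.90 ± 0.30 and 9.56 ± 0.22 (SD, n = 3 each).

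The ABCA1 difference was 0.25 ± 0.23 on the log2 scale at 12 h, 0.49 ± 0.23 at 24 h and 0.60 ± 0.23 at 48 h (SE of the fit). At 48 h it was 1.52-fold and did not pass limma without the block (adjusted p = 0.216), but passed with it (SE 0.14, adjusted p = 0.0218). Its average over the 3 times was 0.45 ± 0.13, or 1.36-fold, with adjusted p = 0.176 in limma without the block and 0.0166 with it (SE 0.080). The call of the average with the block held in 18 of 18 fits that left out 1 array, with adjusted p from 0.0097 to 0.046 in limma. The call at 48 h with the block was lost without CsA 48 h replicate 2 (difference 0.52, limma adjusted p = 0.115) and without control 48 h replicate 3 (difference 0.50, limma adjusted p = 0.0582). It was also lost in a blocked fit of the 48 h arrays alone (limma adjusted p = 0.0581) and of replicates 1 and 2 alone (0.0791).

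A second ABCA1 probe set gave the same direction. It read 8.61, 8.03 and 8.63 on control arrays and 9.15, 9.16 and 9.42 on CsA arrays at 48 h, so the groups did not overlap there either. Its difference at 48 h was 0.82 ± 0.34 (limma adjusted p = 0.257, blocked 0.0172). The probe sets correlated at 0.952 over the 18 arrays. Both were read on the same arrays, so they are not independent. The gene lies at chr9:104781006-104928155.

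ABCB1, the drug pump P-glycoprotein, was lower with CsA in each of the 3 pairs at 48 h, a pattern that 26.2% of genes tested also had. At 48 h the control arrays read 9.34, 9.44 and 10.60, and the CsA arrays of the same replicates read 9.05, 8.18 and 9.67. The groups overlapped because CsA replicate 3 lay above control replicates 1 and 2. The pair differences were -0.29, -1.26 and -0.93, so replicate 1 showed the smallest.

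The 48 h ABCB1 difference was -0.83 ± 0.50, which is 0.563 times the control level. It did not pass limma without the block (adjusted p = 0.470) and passed with it (SE 0.18, 95% interval -1.21 to -0.44, adjusted p = 0.0162). Without CsA 48 h replicate 2 the blocked difference was -0.64 and no longer passed (limma adjusted p = 0.0986), and without any other single array it passed. It was also lost in blocked fits of the 48 h arrays alone (limma adjusted p = 0.0709) and of replicates 1 and 2 alone (0.0917). The earlier differences were -0.12 ± 0.50 at 12 h and 0.13 ± 0.50 at 24 h, neither of which passed. The test of whether the CsA effect differed between times did not pass for ABCB1 with the block (limma adjusted p = 0.349, unadjusted p = 0.00589).

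At the earlier times ABCB1 varied by replicate more than by treatment. Control arrays read 9.49, 9.46 and 10.29 at 12 h and 9.10, 8.81 and 10.38 at 24 h, and CsA arrays read 9.42, 9.35 and 10.09 at 12 h and 9.33, 9.02 and 10.35 at 24 h. Replicate 3 was the highest of its group each time. A second ABCB1 probe set gave -0.82 ± 0.44 at 48 h (limma adjusted p = 0.393, blocked 0.0677) and correlated with the first at 0.892 over 18 arrays. The gene lies at chr7:87503017-87713295.

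ABCB10, the mitochondrial member, was lower with CsA in all pairs at 24 h and at 48 h, and passed no test on the 18 arrays. Of all genes tested, 23.3% were lower in all pairs at 24 h and 26.2% at 48 h. At 12 h its pair differences were 0.09, -0.03 and -0.16. Its control arrays read 8.74, 8.85 and 8.88 at 24 h and 8.79, 7.99 and 8.04 at 48 h. Its CsA arrays read 8.71, 8.25 and 8.69 at 24 h and 8.34, 7.79 and 6.92 at 48 h. At 24 h all CsA arrays lay below all control arrays, as for 5.12% of genes tested, and at 48 h the groups overlapped. The 48 h difference was -0.59 ± 0.29 (limma adjusted p = 0.337, blocked 0.179), with CsA replicate 3 the lowest of the 18 arrays. Without the block, the 48 h difference ranged from -0.91 (without CsA replicate 1) to -0.20 (without CsA replicate 3) with 1 array left out, and was -0.33 without control replicate 1. With the block it passed at 48 h only in the fit without CsA replicate 1 of that time, among fits that left out 1 array.

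ABCC1, which exports glutathione conjugates and leukotriene C4, was higher with CsA in 9 of 9 pairs by 0.03 to 0.39. Of all genes tested, 3.47% were higher in 9 of 9 pairs, and ABCA1 and ABCC1 were the members among them. At 24 h the CsA arrays (7.92, 7.998 and 7.90) all lay above the control arrays (7.80, 7.89 and 7.66), as for 4.57% of genes. At 48 h they read 8.34, 8.58 and 8.68 against 7.95, 8.31 and 8.61, and the groups overlapped. The average difference was 0.16 ± 0.10 (limma adjusted p = 0.593, blocked 0.232). A second ABCC1 probe set gave -0.07 at 12 h, -0.05 at 24 h, 0.43 at 48 h and 0.10 in the average, none of which passed.

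ABCC5, an exporter of cyclic nucleotides and nucleotide analogues, was lower with CsA at 24 h by nearly one amount in each pair, -0.21, -0.22 and -0.21, and 23.3% of genes were lower in all 3 pairs at that time. Its 24 h arrays read 7.82, 7.89 and 7.91 with CsA and 8.03, 8.11 and 8.12 in controls, with no overlap, as for 5.12% of genes tested. The difference of -0.21 ± 0.10 did not pass limma (adjusted p = 0.999, blocked 0.538). At 12 h its pair differences were -0.10, 0.06 and 0.02, and at 48 h they were -0.21, -0.14 and 0.14. A second ABCC5 probe set gave -0.11 ± 0.11 at 24 h. Its groups overlapped, with 4.82, 4.97 and 4.89 for CsA and 4.77, 5.03 and 5.22 for controls.

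ABCC4, which exports cyclic nucleotides, urate and nucleotide drugs, differed by 0.04 at 12 h, 0.05 at 24 h and -0.21 ± 0.25 at 48 h. It was higher with CsA in 3 of 3 pairs at 24 h, as were 22% of genes, and lower in 3 of 3 at 48 h, by 0.11, 0.31 and 0.21 on the log2 scale, and the difference passed neither fit (limma adjusted p = 0.768, blocked 0.151). Without the block, the 48 h difference was -0.03 without CsA replicate 3 and -0.39 without control replicate 3, the ends of its range with 1 array left out. Its other probe sets gave 0.31 and 0.29 at 48 h, the opposite sign. ABCC3, an exporter of bile salts and glucuronides, differed by 0.04, 0.33 and 0.20 ± 0.79, with a standard error larger than any of its differences.

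**Figure D2:**
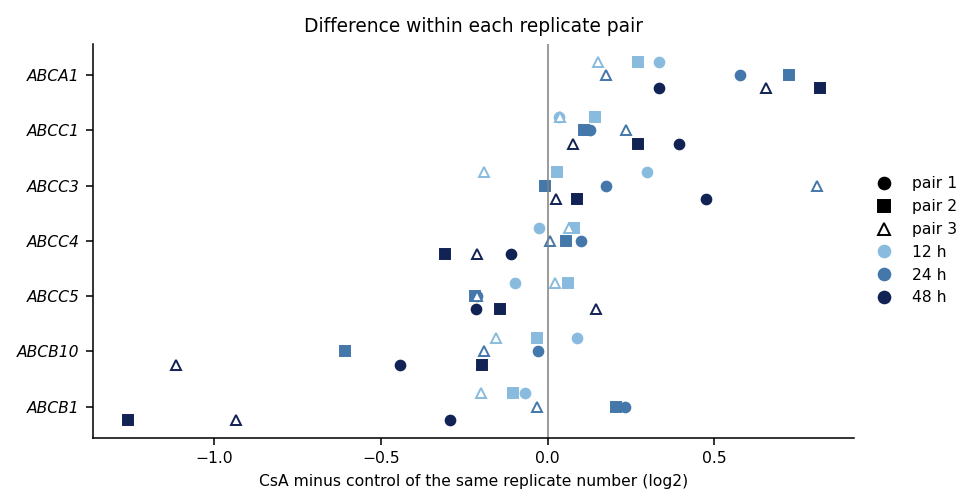
CsA minus control within each replicate pair (log2, horizontal axis) for the 7 tested genes (rows), 1 marker per pair, with shapes for the pair and shades for 12, 24 and 48 h. ABCA1 and ABCC1 lie above 0 in 9 of 9 pairs, while ABCB1 lies on both sides of 0 before 48 h and below it in all 3 pairs at 48 h.

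Counted over the 7 tested genes, limma without the block called 0 at 12 h, 24 h, 48 h and in the average. The same fit called 0% of all genes at 12 h, 0% at 24 h, 0.439% at 48 h and 0.084% in the average. At an unadjusted p under 0.05 it had 0 members at 12 h (0.914% of genes) and 1, ABCA1, at 24 h (3.79%), at 48 h (16%) and in the average (12.2%). With the block it called 0 members at 12 and 24 h, where 0% and 0.00933% of genes were called. At 48 h it called 2 members, ABCA1 higher and ABCB1 lower, where 10.8% of genes were called, 4.8% higher and 5.96% lower. Leaving out 1 array moved these blocked counts at 48 h over 0 to 3 members and 65 to 1689 genes, of 1153 on all arrays. The lowest gene counts were 65 without CsA 48 h replicate 2, 134 without control 48 h replicate 1 and 642 without CsA 48 h replicate 3. In the average it called 1, ABCA1, where 4.61% of genes were called, and leaving out 1 array gave 1 to 2 members and 64 to 976 genes. The effect by time gave 0 members in either fit (0.0373% of genes without and 0.028% with the block), with 0 and 1 members (ABCB1) at an unadjusted p under 0.05, beside 3.47% and 10.5% of genes. The median difference of the 7 genes was 0.04 at 12 h, 0.13 at 24 h and -0.07 at 48 h, against -0.01, -0.01 and 0.00 over all genes tested.

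**Figure D3:**
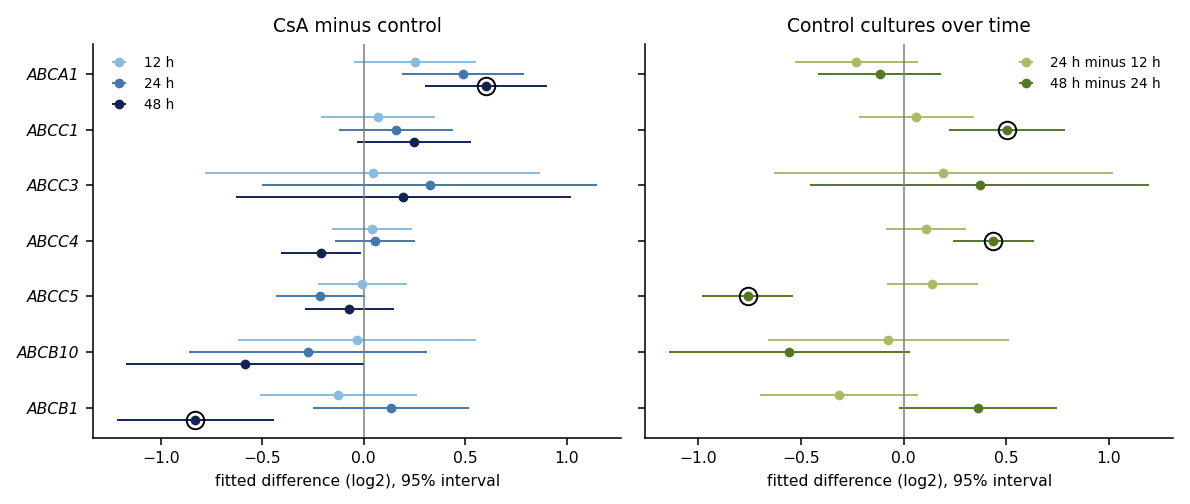
Fitted log2 differences (horizontal axis) with their 95% intervals from limma with the replicate block, for the 7 tested genes (rows), with CsA minus control at each time on the left and control 24 h minus 12 h and 48 h minus 24 h on the right; a black ring marks an adjusted p under 0.05. On the left the rings are on ABCA1 and ABCB1 at 48 h, and on the right on ABCC1, ABCC4 and ABCC5 for 48 h minus 24 h.

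The control arrays alone, with no CsA, differed more widely between 24 and 48 h. ABCC5 fell by 0.76 ± 0.10 on the log2 scale between 24 and 48 h (SE; limma adjusted p = 0.000699), from 8.03, 8.11 and 8.12 to 7.48, 7.27 and 7.22. It also fell by 0.62 ± 0.10 from 12 to 48 h (limma adjusted p = 0.00218). The CsA arrays at 48 h were low as well, at 7.27, 7.13 and 7.37. With only the arrays of the groups compared in the fit, the ABCC5 calls were lost (limma adjusted p = 0.0552 and 0.055). Its second probe set gave -0.10 in both comparisons, which did not pass. The gene lies at chr3:183919934-184017884.

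ABCC1 rose by 0.57 ± 0.17 in controls from 12 h (7.47, 7.81 and 7.88) to 48 h (limma adjusted p = 0.0368). This call was lost in 5 of 9 fits that left out 1 control array (each replicate at 12 h, and replicates 2 and 3 at 48 h, with limma adjusted p up to 0.139). With the block it passed in 9 of 9 such fits, and with only the arrays of the groups compared it was lost without and with the block (limma adjusted p = 0.166, blocked 0.0741). Its 48 h minus 24 h difference was 0.50 ± 0.17 (limma adjusted p = 0.0658, blocked 0.0103), and the blocked call was lost without control replicate 3 of 24 h or of 48 h, and with only the arrays of the groups compared (blocked limma adjusted p = 0.181). A second ABCC1 probe set gave 0.32 and 0.17, neither past the threshold. The gene lies at chr16:15949143-16143053.

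ABCC4 was higher in controls at 48 h, with 10.90, 10.84 and 10.35 against 10.37, 10.54 and 9.87 at 24 h and 10.35, 10.28 and 9.83 at 12 h. Each replicate was higher at 48 h than at either earlier time, and the groups overlapped because replicate 3 was low throughout. The differences were 0.44 ± 0.25 and 0.55 ± 0.25, with limma adjusted p = 0.273 and 0.147 without the block and 0.00318 and 0.000692 with it. Both blocked calls were lost with only the arrays of the groups compared in the fit (limma adjusted p = 0.132 and 0.0715). Its other probe sets gave 0.06 and 0.05 against 24 h, and 0.12 and 0.31 against 12 h. The gene lies at chr13:95019835-95301451.

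Without the block limma called 1 of 7 members between control 48 and 24 h (ABCC5), where 14.5% of all genes were called, and 2 between 48 and 12 h (ABCC5 and ABCC1), where 17.9% were. With the block it called 3 in each comparison (ABCC1, ABCC4 and ABCC5), beside 32.6% and 36.7% of genes. Between control 24 and 12 h it called 0 members and 0% of genes in either fit, with 0 members at an unadjusted p under 0.05 (1.22% of genes without the block). ABCC5 nonetheless lay higher on all control arrays of 24 h than of 12 h, as did 2.97% of genes. The comparisons with 48 h share the control arrays of that time. ABCC1 lay above its earlier values on all control arrays of 48 h, as did 14.9% of genes against 24 h and 16.5% against 12 h. ABCC5 lay below them on all, as did 16.1% and 18.3%.

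Replicate 3 differed from the other arrays in several members, and these values are given without a test. ABCC3 averaged 7.70 on the 6 arrays of replicate 3 (6.70 to 8.70) and 9.31 on the other 12 (8.91 to 9.48), with all 6 below all 12, as for 4.9% of genes tested. The gap narrowed with time in culture, from -2.30 and -2.65 at 12 h (control and CsA) to -2.12 and -1.40 at 24 h and -0.47 and -0.73 at 48 h. ABCB1 went the other way, with 10.23 on replicate 3 (9.67 to 10.60) and 9.17 on the rest (8.18 to 9.49), all 6 above all 12, as for 3.19% of genes. ABCC4 was lowest in replicate 3 in 6 of 6 groups, as for 14.8% of genes, by 0.54 on the log2 scale. These values are from the brightest probe sets. Another ABCC4 probe set was lowest in replicate 2 at 48 h, with 9.32, 8.74 and 8.86 in controls and 9.43, 9.21 and 9.23 with CsA. A further one stayed lowest in replicate 3 there, at 7.94 and 8.29. Other ABCC3 probe sets also varied in order, with 48 h controls at 5.87, 5.66 and 6.25 or at 6.84, 7.08 and 6.60. ABCA1 was highest in replicate 3 in 5 of 6 groups, by 0.42. The share of genes with at least 5 of 6 was not counted, and 11.7% met the stricter rule of 6 of 6.

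**Figure D4:**
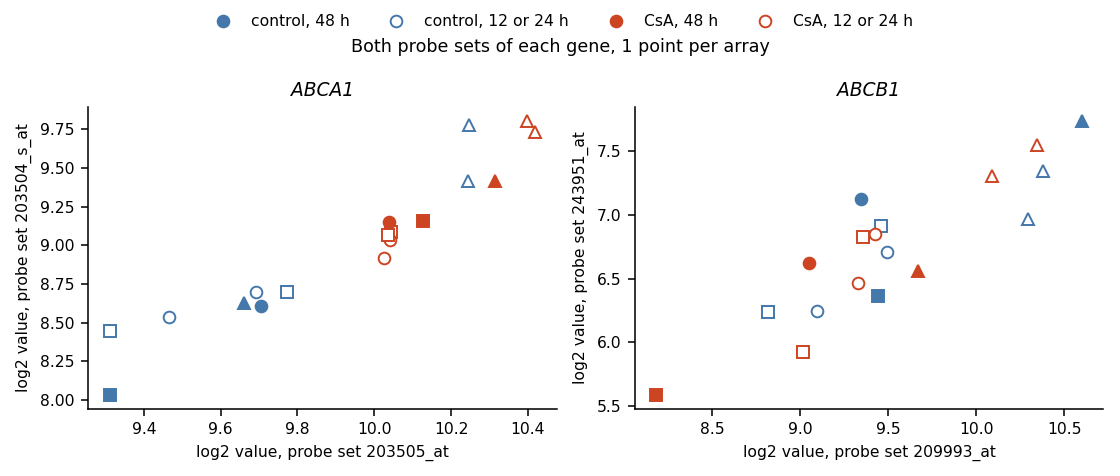
Log2 GCRMA values of the brightest probe set (horizontal axis) and another probe set (vertical axis) of the same gene, 1 marker per array; filled markers are 48 h, open markers are 12 and 24 h, circles, squares and triangles are replicates 1, 2 and 3, and colours give the treatment. The probe sets correlated at 0.952 for ABCA1 (left) and 0.892 for ABCB1 (right), and the 3 filled CsA markers of ABCA1 lie above the 3 filled control markers on both axes.

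Where a gene had several probe sets reaching 4, they varied in how alike they were. The correlation with the brightest was 0.673 for ABCC1, 0.662 and 0.739 for ABCC4, 0.249 for ABCC5, and 0.374 to 0.966 for ABCC3. The members also varied alike over the 18 arrays, as a description: ABCC3 and ABCC4 correlated at 0.79, ABCB1 and ABCC3 at -0.74, ABCC1 and ABCB10 at -0.83, and ABCC1 and ABCC5 at -0.79. These arrays share their replicate number and time, which the correlations include. Each replicate and time held 1 CsA and 1 control array, so with its mean taken off a correlation rests on the 9 pair differences between CsA and control. On these centred values, ABCB1 and ABCC4 correlated at 0.92, ABCA1 and ABCC1 at 0.74 and ABCA1 and ABCB10 at -0.73. The 0.92 describes the brightest ABCC4 probe set only, whose CsA difference at 48 h was -0.21. The other ABCC4 probe sets gave 0.31 and 0.29 there, and their correlation with ABCB1 was not computed. Centred in this way, the values keep the average CsA shift. Genes shifted the same way in most pairs thus tend to correlate positively, even where their pair differences do not rise and fall together. ABCA1 and ABCC1 were each higher with CsA in all 9 pairs, so their value cannot show that their responses varied together.

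By the same measure over 18 arrays, the genes most like ABCC3 were ADGRG1 (0.97), H6PD (0.96) and PRKCB (0.96), and those most like ABCB1 were SQOR (0.94), SLC43A3 (0.92) and SLCO2A1 (0.92). For ABCB10 they were ARHGEF40, SLC35D1 and NEDD9 (0.97 each), and for ABCC1 they were PHF1 (0.96), AAK1 (0.95) and MAPK6 (0.95). On the same centred values, the nearest to ABCB1 were FGFR1, SLCO2A1 and MEIS3P1 (0.98 each). For ABCB10 they were then MDGA2 (0.97), DERA and CAVIN2 (0.96 each), and for ABCC1 they were PJA2 (0.96), PRRC1 and RAB1A (0.95 each).

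Genes of related function were counted beside the members, and without the block limma called 0 of them between CsA and control at any time or in the average. At an unadjusted p under 0.05 it had 0 of 67 list genes at 12 h, 2 at 24 h, 9 at 48 h and 4 in the average, where 0.914%, 3.79%, 16% and 12.2% of all genes tested were under it. Of the LXR receptors and their targets beside ABCA1 and ABCG1, 8 of 9 were tested. Their differences were positive in 6, 7 and 8 of 8 at 12, 24 and 48 h, with medians of 0.06, 0.17 and 0.24. Of all genes tested 46.7%, 48.0% and 50.2% were positive at these times, and with the block 4.8% were called higher at 48 h and 2.11% in the average. Blocked calls of list genes, here and below, are from all 18 arrays, and fits with 1 array left out are not given for them. Without CsA 48 h replicate 2 the blocked fit called 65 of all genes at 48 h, against 1153 on all arrays. With the block, PLTP, which transfers phospholipid between lipoproteins, rose at 48 h (0.49 ± 0.14, limma adjusted p = 0.115 without and 0.0285 with it). In the average SREBF1, the sterol response factor, was at 0.40 ± 0.12 and SCD, a fatty acid desaturase, at 0.31 ± 0.20 (limma adjusted p = 0.176 and 0.613 without the block, 0.0397 and 0.0230 with it).

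Of the scaffold proteins that hold transporters at the membrane, 7 of 8 were tested. At 48 h 1 of 7 differences was positive, the median was -0.46, and 3 fell with the block, while 50.2% of all genes tested were positive and 5.96% fell with the block. SNTB2, a syntrophin, was at -0.94 ± 0.23 (limma adjusted p = 0.0693 without the block and 0.0213 with it), and the membrane linker RDX at -0.46 ± 0.19 (0.256 and 0.0236). PDZK1, which binds the tails of apical transporters, was at -1.22 ± 1.57 (limma adjusted p = 0.795 and 0.0275).

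Among regulators of efflux genes, 11 of 15 were tested. KEAP1, the inhibitor of the oxidative stress factor NRF2, was lower at 48 h (-0.41 ± 0.11, limma adjusted p = 0.0864, blocked 0.0234) and in the average (-0.33 ± 0.061, 0.0568 and 0.0127), while NFE2L2, which encodes NRF2, was at -0.03 at 48 h and did not pass. Of the genes of glutathione supply 11 of 14 were tested, 3 of 11 were positive at 48 h, and the glutathione reductase GSR was called with the block (-0.48 ± 0.33, limma adjusted p = 0.535 and 0.0435). Beside these, 50.2% of all genes tested were positive at 48 h. The block called 5.96% of them lower at 48 h and 2.5% lower in the average.

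Other ABC genes that pump substrates numbered 12 of 26 tested, of which 9 of 12 were positive at 48 h (median 0.16) and 0 were called by limma in either fit (2 at an unadjusted p under 0.05 without the block). The 4 ABC proteins without membrane domains, which act on ribosomes, were all positive at 48 h, and ABCF3 was called with the block (0.66 ± 0.28, limma adjusted p = 0.262 and 0.0201). Of the renal uptake and exchange transporters, which carry anions, cations and drugs across the membranes of the tubule cell, 4 of 13 were tested. Of these, 0 were called in either fit (0 at an unadjusted p under 0.05 without the block). Another 8 lay under 4 in all groups, among them SLC22A6, SLC22A8, SLC22A2 and SLC47A1. Of the genes of heme synthesis, the pathway of ABCB10, 10 of 11 were tested, 4 of 10 were positive at 48 h and 0 were called in either fit (1 at an unadjusted p under 0.05 without the block). Beside these lists, 50.2% of all genes tested were positive at 48 h, and 4.8% were called higher with the block. Without the block, 16% had an unadjusted limma p under 0.05 at that time.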

How the data were processed

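Expression was measured on 18 Affymetrix arrays of HK-2 cells, 3 per group, and groups and replicate numbers were read from each sample's title. Per the submitters' processing notes the deposited values come from GCRMA (version unstated). The authors' deposited numbers were read as log2, judging by their range, since the labels name no log base. The sources used here do not say which arrays were normalized jointly. GCRMA compresses differences near background.

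Of 54675 probe sets, 41091 had 1 gene symbol in the platform annotation, checked against RefSeq names on GRCh38.p14, which changed 0 symbols. Tests used genes with a group mean of at least 4, read from the probe set with the highest mean. Of the 27 probe sets of the members, 17 reached 4, and 1 further probe set with several symbols was not used. limma 3.58.1 in R 4.3.3 (lmFit, eBayes) was run on all 18 arrays with a term per group, with Benjamini-Hochberg adjustment over 10717 genes and a threshold of 0.05; the script was tested on simulated data. Errors with a difference are standard errors of that fit without the block unless stated. The labels call the replicates biological, and p-values measure the spread between these arrays.

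Replicate numbers are shared by all groups. Arrays with the same number correlated in their deviations at 0.277 to 0.942, and at 0.546 to 0.942 within a time. In all, 18 of 18 arrays were closest to an array of their own number. Same-numbered arrays were therefore treated as pairs in the pair differences and as a block in the blocked fits. The fit without the block did not use the numbers. The pairing rests on the values, since no label says what a number shares. The block is given where it changes a call. Members, lists and alternatives were chosen with earlier results of these data known. Genes were named as the members, as list genes called in either fit or of largest difference, and as the 3 genes most correlated with the 4 most variable members. Alternatives were the block, the level filter, the groups fitted, the normalization, other probe sets and each array left out; fits on replicates 1 and 2 and their combination with the block were added after the data were seen. Listed genes without a single-symbol probe set were not analysed here. Python 3.11.15, pandas 2.3.3 and matplotlib 3.10.9 made the tables and figures.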

Additional observations from a re-analysis of the deposited data

Results flagged for a closer look

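The CsA difference of ABCC4 pointed one way at 24 h and the other way at 48 h, with 3 of 3 pairs higher at 24 h (by 0.10, 0.06 and 0.01) and 3 of 3 lower at 48 h (-0.11, -0.31 and -0.21). Of all genes tested, 22% were higher in all 3 pairs at 24 h and 26.2% lower in all 3 at 48 h. The 48 h difference minus the 24 h difference was -0.26 on the log2 scale. The test over the 3 times did not pass (limma adjusted p = 1.00, blocked 0.565), and the other ABCC4 probe sets were at 0.31 and 0.29 at 48 h.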

How the results depend on the processing

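With the replicate block the genes called were 1 for CsA at 24 h, 1153 at 48 h, 494 in the average, and 3489 and 3938 for control 48 h against 24 and 12 h, and the members called were 2 (CsA at 48 h), 1 (average) and 3 (control 48 h against 24 h). No level filter gave 28 genes at 48 h, 16 in the average and 1 member for control 48 h against 12 h. Fits of only the groups compared gave 0 genes for CsA at 48 h and 91 and 493 for the control comparisons, with 0 members in each, and with the block 824, 613 and 938 genes and 0 members.

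Replicates 1 and 2 alone, added after the data were seen, gave 0 genes in the average and by time and 2 members for control 48 h against 24 h. With the block they gave 98 genes at 48 h, 49 in the average, 0 by time, 2366 and 2937 between controls, 1 member in the average and 2 for control 48 h against 24 h. There ABCA1 at 48 h was 0.57 (limma adjusted p = 0.0791 with the block), its average 0.51 (0.0491) and ABCB1 at 48 h -0.78 (0.0917). In both fits signs turned for ABCB10 with CsA at 12 h (0.027), for ABCC3 (-0.18) and ABCA1 (0.12) between 48 and 24 h, and for ABCB1 (-0.084) and ABCC3 (-0.044) between 48 and 12 h. In a blocked fit of only the 6 arrays from 48 h, ABCA1 and ABCB1 had limma adjusted p = 0.0581 and 0.0709.

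Quantile normalization turned ABCC5 with CsA at 12 h to 0.028. Other probe sets turned ABCC4 to -0.12 at 12 h, 0.31 and 0.29 at 48 h and 0.077 and 0.13 in the average, ABCC5 to 0.066 at 48 h and -0.00031 between controls of 24 and 12 h, ABCC1 to -0.066 at 12 h and -0.051 at 24 h, ABCB1 to 0.13 at 12 h, and ABCC3 to -0.046 at 24 h, -0.061 at 48 h, -0.11 and -0.015 for control 48 h against 24 h and -0.030 against 12 h.

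Leaving out 1 array at a time, the genes called ranged over 0 to 1 for CsA at 12 h, 0 to 1 at 24 h, 7 to 563 at 48 h, 3 to 164 in the average and 1 to 16 by time, and over 654 to 1546 and 1022 to 1979 for control 48 h against 24 and 12 h, with 1 to 2 members in each. With the block they ranged over 65 to 1689 for CsA at 48 h and 64 to 976 in the average. With CsA, differences at 12 h ranged over -0.72 to 0.93 (ABCC3), -0.12 to 0.19 (ABCC4), -0.052 to 0.081 (ABCC5), -0.36 to 0.15 (ABCB1), -0.055 to 0.22 (ABCC1) and -0.12 to 0.015 (ABCB10), at 24 h over -0.14 to 0.27 (ABCC4), -0.26 to 0.61 (ABCB1) and -0.38 to 0.79 (ABCC3), at 48 h over -0.13 to 0.0080 (ABCC5), and in the average over -0.10 to 0.033 (ABCC4) and -0.067 to 0.48 (ABCC3). Between controls of 24 and 12 h they were -0.064 to 0.14 (ABCC1), -0.57 to 0.90 (ABCC3) and -0.053 to 0.30 (ABCC4), of 48 and 12 h -0.36 to 0.32 (ABCB1) and -0.20 to 0.96 (ABCC3), and of 48 and 24 h -0.34 to 0.76 (ABCC3), -0.30 to 0.17 (ABCA1) and -0.039 to 0.84 (ABCB1). ABCA1 at 48 h stayed between 0.48 and 0.67 and ABCB1 between -1.18 and -0.43, without a call in this fit. The cause of these changes was not tested.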
